A study of Mus musculus with 14 samples.

Results

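The genes described here encode the subunits of the 5 complexes of oxidative phosphorylation. They were chosen by symbol: the Nduf subunits, Sdha to Sdhd, Uqcr genes and Cyc1, Cox4 to Cox8, Atp5 genes, and the protein genes of the mitochondrial chromosome, without pseudogenes. The choice gave 99 of the 53801 genes in each file, 86 of them nuclear and 13 mitochondrially encoded, and left out 7 pseudogenes. Of the nuclear genes, 36 belong to complex I, 4 to complex II, 9 to complex III, 20 to complex IV and 17 to complex V. The mitochondrial genome carries 7 subunits of complex I, 1 of complex III, 3 of complex IV and 2 of complex V, and 0 of complex II.

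Bulk RNA-seq was done on 14 CT26 tumors, a colorectal carcinoma line that had been marked with the ClonTracer barcode library. The line was transplanted under the skin of both flanks of wild-type female Balb/c mice aged 6 to 8 weeks. From day 7 the mice received control IgG or anti-PD-1, an antibody that blocks an inhibitory receptor of T cells, 5 times at intervals of 3 days, and tumors were taken 3 days after the last injection. The groups are 5 control IgG tumors (14L, 14R, 16R, 17R and 20R), 5 anti-PD-1 responders (24L, 26R, 30L, 30R and 35L) and 4 anti-PD-1 non-responders (29L, 32R, 33L and 33R). Response was defined by final tumor size against the control IgG tumors. The 14 tumors came from 11 mice by the number in the tumor name, and mice 14, 30 and 33 gave a tumor from each flank, so that p-values treat tumors of a mouse as separate samples.

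Oxidative phosphorylation moves electrons from NADH and succinate through complexes I to IV to oxygen, pumps protons across the inner mitochondrial membrane, and uses their return through complex V to make ATP. Complexes I, III, IV and V are mosaics of nuclear and mitochondrial gene products, while complex II, which is also the succinate dehydrogenase of the citric acid cycle, is wholly nuclear. The core subunits carry the flavin, iron-sulfur clusters, hemes and copper that pass electrons, and the accessory subunits, most of them small proteins with short messages, surround that core. Tumors use both this pathway and glycolysis, and activated T cells also depend on their mitochondria.

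The values are expected counts of RSEM, with totals between 33237744 and 48481461 a tumor. CPM is the count scaled to a common library size after TMM normalization and grows with the length of the message, whereas TPM divides by effective length and allows levels of different genes to be compared. The length matters here, because the median length of the nuclear genes was 712.5 bases against 2345 bases for the 16287 genes that passed the filter on low counts. Non-responder 33R stood apart in this respect. Its short genes were high relative to its long genes, with a difference of 0.54 (log2) between genes of 500 and of 3000 bases, while the other control IgG and non-responder tumors had differences between -0.07 and 0.10 and the responders between -0.21 and -0.12. Tumor 33R also had the longest mean fragment length, 287.8 bases against 268.7 to 282.4 in the others. The main counts and the called genes are therefore given with and without it.

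The first comparison sets responders beside non-responders. Of the 82 nuclear genes that passed the filter, 10 were lower in responders and 0 were higher at an adjusted p under 0.05 (edgeR quasi-likelihood test, Benjamini-Hochberg adjustment over all genes), where 4.82% of all genes tested were lower and 5.08% were higher. The 10 are Ndufa10, Ndufs1, Ndufs5 and Ndufa7 of complex I, Uqcrq and Uqcr10 of complex III, and Cox6a2, Cox6a1, Cox5b and Ndufa4 of complex IV. With all tumors the log2 fold change was negative for 80 of the 82, with a median of -0.31 against 0.01 over all genes tested. Without 33R more of the nuclear genes were positive, among them Ndufa1 and Ndufa3 at 0.15 each. The count of 10 rested on several tumors. Without 33R 1 nuclear gene, Ndufa10, was lower, where 1.74% of all genes were, and the median was -0.11. Without responder 24L it was also Ndufa10 alone, where 1.41% of all genes were lower, and without 32R or 35L the count was 2, where 1.61% and 3.15% of all genes were lower. Since these are bulk samples, fewer cells of a type and less RNA per cell cannot be told apart.

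Against control IgG, responders were lower in 2 of the 82 nuclear genes, Ndufa10 and Ndufs1, and higher in 0, where 5.3% of all genes were lower and 7.88% were higher. The median log2 fold change was -0.18 against -0.01 over all genes. This comparison does not hold 33R as a sample, but 33R adds to the shared estimate of spread, and the count without it was 12, where 9.31% of all genes were lower. Between non-responders and control IgG tumors, 0 of the 82 nuclear and 0 of the 13 mitochondrial genes passed with edgeR, where 0% of all genes were lower and 0% higher, and DESeq2 also called 0 of them. At an unadjusted p under 0.05 the edgeR counts were 1 nuclear and 1 mitochondrial gene. The responder comparisons share the responder tumors and are not independent of each other.

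Summed over all 86 nuclear genes, the level was 9438, 12069, 9958, 9964 and 10897 CPM in the control IgG tumors 14L, 14R, 16R, 17R and 20R. The responders 24L, 26R, 30L, 30R and 35L had 8537, 9450, 9553, 9129 and 9521 CPM. The non-responders 29L, 32R, 33L and 33R had 10030, 11153, 9475 and 14586 CPM. Non-responder 33L thus lay within the responders, the other non-responders lay above them, and 33R was highest of all. The ratio of the responder to the non-responder mean was 0.82, and 0.90 without 33R. In TPM the mean sum of the responders was 23161 ± 812 (SD, n = 5). That of the non-responders was 24523 ± 2186 (SD, n = 4), and that of the control group 23801 ± 1283 (SD, n = 5). The ratio was 0.94 on this scale, 0.98 without 33R, and the 3 groups overlapped. By complex, the ratio in CPM was 0.81 for complex I, 0.90 for II, 0.78 for III, 0.76 for IV and 0.85 for V, and in TPM it was 0.96, 1.04, 0.89, 0.90 and 0.97 in the same order. Without 33R the ratios in CPM were 0.92, 0.95, 0.89, 0.87 and 0.91. The share of the nuclear genes in all transcripts was 2.38% in TPM and 1.03% in CPM, as averages of the 14 tumors.

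**Figure D1:**
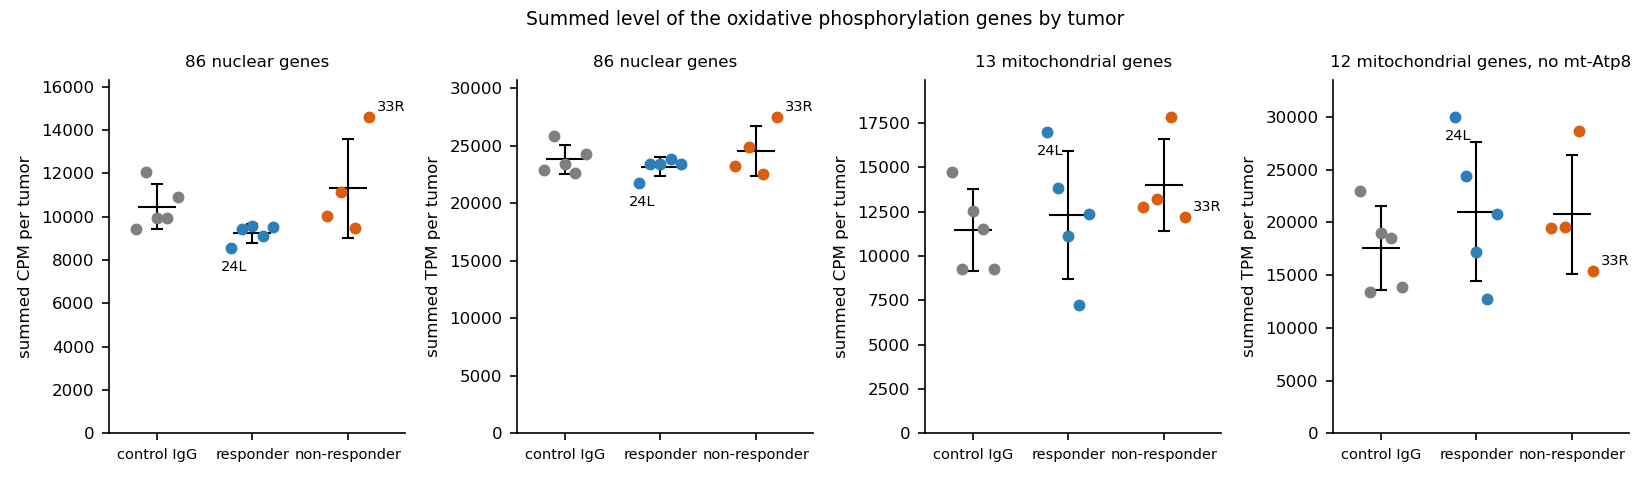
Summed level per tumor (points) of the 86 nuclear genes in CPM and in TPM, of the 13 mitochondrial genes in CPM and of 12 of them in TPM, by group, with the group mean and SD as black bars and all axes from 0. Tumor 33R is highest for the nuclear genes on both scales, with 14586 CPM and 27454 TPM, and lowest of the non-responders for the mitochondrial genes.

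Complex I, the NADH dehydrogenase, had 4 of its 36 nuclear genes lower in responders than in non-responders. With all tumors the log2 fold change was negative for all 36, with a median of -0.30. Some were positive in other fits, up to 0.15 without 33R and 0.27 with the length trend removed, both for Ndufa1. Ndufa10, an accessory subunit of the membrane arm (ENSMUSG00000026260, chr1:92439010-92473860, mm10), separated the groups most clearly. The control IgG tumors had 93.5, 105.0, 93.4, 96.6 and 100.6 CPM, the responders 63.8, 69.6, 75.1, 77.6 and 80.3 CPM, and the non-responders 90.2, 99.7, 94.9 and 94.9 CPM. Every responder was below every tumor of the other groups, and 33R was within the range of the other non-responders. Its log2 fold change was -0.37 ± 0.07 (SE, adjusted p = 0.012 by edgeR) against non-responders and -0.42 ± 0.07 (SE, adjusted p = 0.0023) against control IgG. This call held with each of the 14 tumors left out in turn, with adjusted p from 0.012 to 0.041 against non-responders, and without the length trend.

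Ndufs1, the largest core subunit, which binds iron-sulfur clusters of the NADH module, had the same order of groups (ENSMUSG00000025968, chr1:63143596-63176833, mm10). Control IgG tumors had 115.8, 134.3, 121.2, 120.2 and 146.9 CPM, responders 78.1, 93.5, 96.4, 99.9 and 100.2 CPM, and non-responders 117.2, 120.4, 118.6 and 118.2 CPM. Again no responder reached any other tumor. The log2 fold change was -0.34 ± 0.09 (SE, adjusted p = 0.028 by edgeR) against non-responders and -0.45 ± 0.08 (SE, adjusted p = 0.0037) against control IgG. The first of these calls was lost without 24L, 32R or 33R, with adjusted p of 0.065, 0.067 and 0.064, whereas the second held with each tumor left out. Ndufa10 and Ndufs1 are the 2 called genes longer than 900 bases, at 1949 and 2500 bases.

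In TPM the separation of these 2 genes was less complete. Ndufa10 had 48.9 to 61.1 TPM in responders and 61.3, 70.8 and 68.2 TPM in non-responders 29L, 32R and 33L, but 49.6 TPM in 33R. Ndufs1 had 45.1 to 60.4 TPM in responders, 58.0 to 65.3 TPM in the same 3 non-responders and 45.4 TPM in 33R. Tumor 33R was thus among the lowest tumors for these long genes in TPM and not in CPM. With limma on log2(TPM + 1) the log2 fold changes were -0.17 ± 0.10 (SE, adjusted p = 0.22) for Ndufa10 and -0.09 ± 0.10 (SE, adjusted p = 0.57) for Ndufs1, and the median over all genes was 0.17, so that relative to it they were -0.34 and -0.26.

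**Figure D2:**
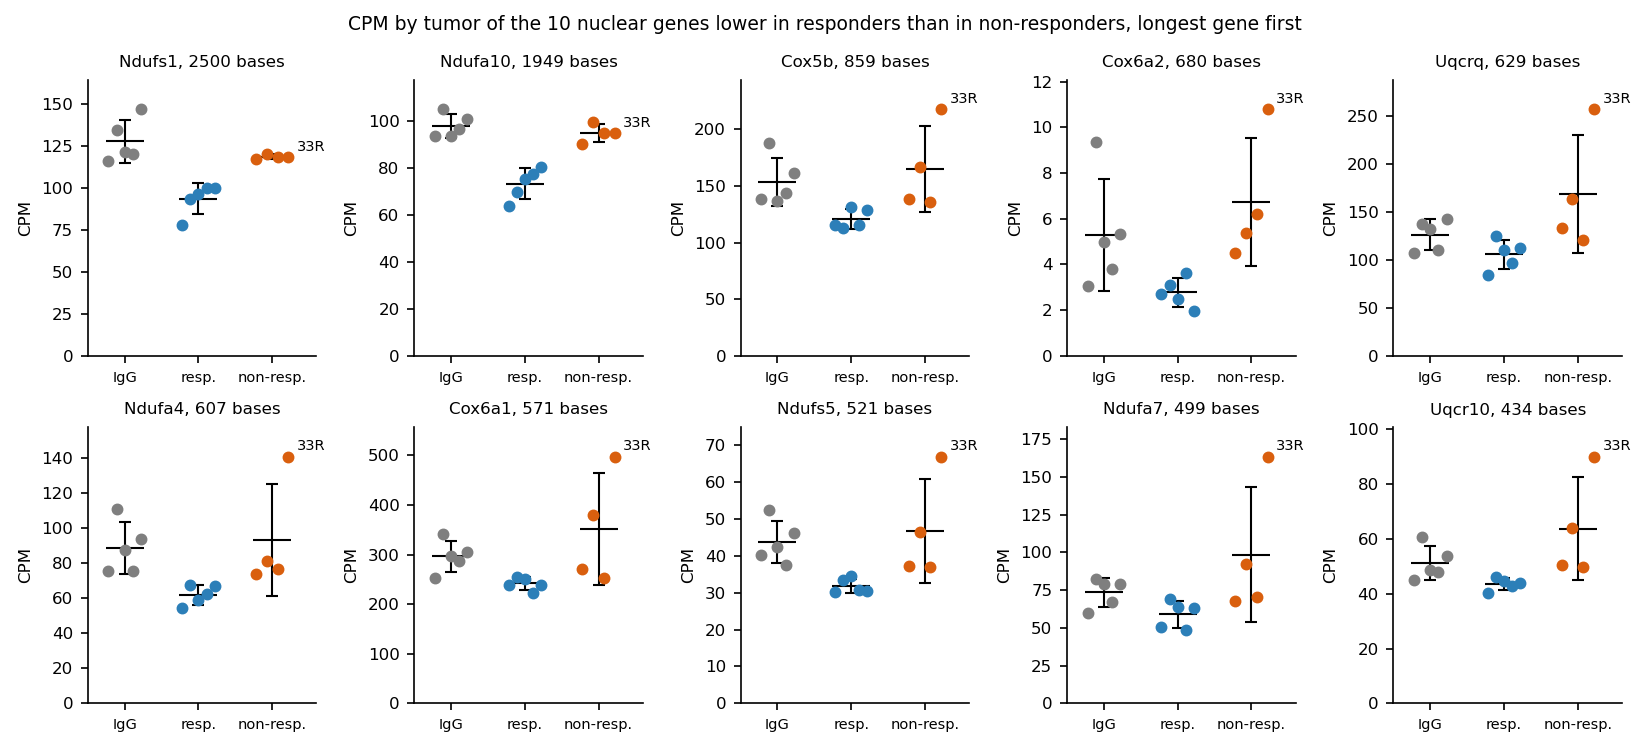
CPM per tumor (points) of the 10 nuclear genes lower in responders than in non-responders, with group mean and SD as black bars, axes from 0, ordered from the longest gene to the shortest. For Ndufs1 and Ndufa10 the 4 non-responders lie close together and above all responders, while for the 8 shorter genes 33R is the highest tumor of its group.

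The 2 other called genes of complex I are accessory subunits with short messages. Ndufs5 (521 bases) had 40.1, 52.4, 42.4, 37.6 and 46.1 CPM in control IgG tumors, and 30.2, 33.4, 34.5, 30.7 and 30.5 CPM in responders. The non-responders had 37.2, 46.3, 36.8 and 66.8 CPM. The responders were below all other tumors, with a log2 fold change of -0.55 ± 0.15 (SE, adjusted p = 0.037 by edgeR) against non-responders. Ndufa7 (499 bases) had 48.4 to 68.9 CPM in responders, while non-responders had 67.7, 92.4, 70.5 and 163.5 CPM, so the groups overlapped and 33R had more than any other tumor. Without 33R the log2 fold changes were -0.32 for Ndufs5 (adjusted p = 0.105) and -0.37 for Ndufa7 (adjusted p = 0.146). Of the 14 fits with a tumor left out, 7 called Ndufs5 and 2 called Ndufa7. The other 32 nuclear genes of complex I did not pass, among them Ndufv1 (-0.21, adjusted p = 0.085), the flavin-binding core subunit, and Ndufb8 (-0.51, adjusted p = 0.17), the nuclear subunit with the highest TPM of the complex.

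Complex II had 0 of 4 genes called. Sdha, the flavoprotein, had a log2 fold change of 0.03 (adjusted p = 0.85), and is the longest of the 4 at 2300 bases. It ranged from 182 to 204 CPM in responders, from 147 to 212 CPM in non-responders and from 193 to 217 CPM in control IgG tumors. Its lowest value of all tumors was that of 33R. Sdhd, a membrane anchor and the gene with the highest TPM of the complex, had a log2 fold change of -0.32 (adjusted p = 0.22).

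Complex III passes electrons from ubiquinol to cytochrome c. It had 2 of 9 nuclear genes lower in responders than in non-responders and a median log2 fold change of -0.39, with 9 of 9 negative. Both called genes are small accessory subunits. Uqcr10 (434 bases) had 40.4, 46.0, 44.6, 42.9 and 43.8 CPM in responders against 50.5, 64.1, 49.8 and 90.0 CPM in non-responders, with no overlap. Its control IgG tumors, from 45.0 to 60.7 CPM, overlapped with both. Its log2 fold change was -0.55 ± 0.15 (SE, adjusted p = 0.035 by edgeR), and -0.32 (adjusted p = 0.093) without 33R. Uqcrq (629 bases) had 84.6 to 125.0 CPM in responders, while non-responders had 132.8, 163.3, 120.9 and 256.6 CPM, so that 33L lay within the responders. Its log2 fold change was -0.67 ± 0.19 (SE, adjusted p = 0.038), and -0.38 (adjusted p = 0.12) without 33R. Of the 14 fits with a tumor left out, 8 called Uqcr10 and 7 called Uqcrq. The nuclear catalytic subunits did not pass: Cyc1, cytochrome c1, had -0.28 (adjusted p = 0.16) and Uqcrfs1, the Rieske iron-sulfur protein, -0.24 (adjusted p = 0.15). Nor did the core protein Uqcrc1 (-0.13, adjusted p = 0.30), which had the highest CPM of the nuclear genes of the complex. Uqcrh, the highest of these in TPM, had -0.41 (adjusted p = 0.19).

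Complex IV, cytochrome c oxidase, had 4 of its 16 tested nuclear genes lower and a median log2 fold change of -0.39. Cox6a1, the common form of subunit 6A and the nuclear gene with the highest TPM of the complex, had 239.6, 255.2, 251.1, 223.4 and 239.6 CPM in responders, while non-responders had 271.8, 380.8, 253.8 and 497.6 CPM. Here 33L lay among the responders. Against non-responders its log2 fold change was -0.54 ± 0.16 (SE, adjusted p = 0.047 by edgeR). Cox5b, a structural subunit, had 112.8 to 131.7 CPM in responders against 138.6, 166.8, 135.6 and 217.6 CPM in non-responders, with no overlap and a log2 fold change of -0.45 ± 0.13 (SE, adjusted p = 0.048). Ndufa4, a subunit first assigned to complex I and counted here with complex IV, had 54.2 to 67.4 CPM in responders, 75.2 to 110.9 CPM in control IgG tumors, and 73.8, 81.1, 76.8 and 140.6 CPM in non-responders. Its log2 fold change was -0.59 ± 0.18 (SE, adjusted p = 0.047). Without 33R the log2 fold changes were -0.31 for Cox6a1 (adjusted p = 0.16), -0.27 for Cox5b (adjusted p = 0.17) and -0.30 for Ndufa4 (adjusted p = 0.16), though responders stayed below the remaining non-responders in Cox5b and Ndufa4. Of the 14 fits with a tumor left out, 2 called Cox6a1, 3 called Cox5b and 3 called Ndufa4. Cox4i1, with the highest CPM of the nuclear genes of complex IV, did not pass (-0.40, adjusted p = 0.10).

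Several subunits of complex IV exist as tissue isoforms, and in these tumors the common ones made up most of each pair. Cox6a2, the heart and skeletal muscle form of subunit 6A, had the largest fold change of all members. It had 3.0, 9.4, 5.0, 3.8 and 5.3 CPM in control IgG tumors, and 2.7, 3.1, 2.5, 3.6 and 2.0 CPM in responders. The non-responders had 4.5, 5.4, 6.2 and 10.8 CPM. Responders and non-responders did not overlap, and the log2 fold change was -1.27 ± 0.32 (SE, adjusted p = 0.025 by edgeR) against non-responders, and -0.93 (adjusted p = 0.090) without 33R. The call was also lost without 24L (adjusted p = 0.064 by edgeR) or 35L (adjusted p = 0.050). With the length trend removed and 33R left out it was lost too (-0.87, adjusted p = 0.11). The call held in 11 fits with another test, normalization, filter, unit or choice of groups. Cox6a2 was between 0.60% and 2.0% of the TPM of the subunit 6A pair. The 14 skeletal muscle markers summed to between 165.7 and 1699 CPM in control IgG tumors and between 35.6 and 573.7 CPM in responders. In non-responders the sum was between 122.2 and 971.8 CPM. Tumors 14R and 33R were highest both in this sum and in Cox6a2, but the order of the others differed. Responders 24L, 26R and 30R had 573.7, 438.9 and 565 CPM of the markers, and 30L and 35L had 35.6 and 112.3 CPM. Non-responders 29L, 32R and 33L had 122.2, 165.5 and 289.9 CPM, with more Cox6a2 than any responder. None of the 14 markers passed the test, none was at 0 in all tumors, and their part in Cox6a2 was not tested. The other muscle forms were low: Cox7a1 had 1.0 to 3.4 CPM (log2 fold change -0.10, adjusted p = 0.90) and Cox8b 0 to 1.3 CPM, too few to be tested. Cox4i2, the form of subunit 4 known from lung and induced by low oxygen, had 0.48 to 1.2 CPM and a log2 fold change of 0.42 (adjusted p = 0.27), and Cox6b2, known from testis, 0 to 0.63 CPM. Cox6c2, Cox7b2 and Cox8c had a count of 0 in all 14 tumors, which in the smallest library allows up to 0.090 CPM. The common forms Cox6b1 (-0.29, adjusted p = 0.20 by edgeR), Cox7a2 (-0.42, adjusted p = 0.093), Cox7b (-0.37, adjusted p = 0.13) and Cox8a (-0.43, adjusted p = 0.085) did not pass. Nor did Cox7a2l, a supercomplex assembly factor related to subunit 7A (-0.37, adjusted p = 0.069).

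Complex V, ATP synthase, had 0 of 17 nuclear genes called, with log2 fold changes between -0.56 and -0.06 and a median of -0.31. Without 33R these genes lay between -0.23 and 0.14. Other fits called some of them: 4 with mouse as a random effect (Atp5d, Atp5f1, Atp5g1 and Atp5g2), where 9.15% of all genes were lower, 3 with 1 library per mouse (Atp5g1, Atp5g2 and Atp5j), where 6.04% were, and Atp5g2 with DESeq2, where 7.56% were. Atp5b, the catalytic beta subunit, was the highest nuclear gene of all complexes, at 3021 TPM. The responders had 1214, 1425, 1527, 1487 and 1486 CPM of it, the non-responders 1620, 1701, 1452 and 1765 CPM, and the control IgG tumors 1431 to 1813 CPM, so the groups overlapped (log2 fold change -0.20, adjusted p = 0.19). Atp5g2, which encodes the ring subunit c, had the smallest adjusted p of the complex, 0.054. In all, 62 of the 86 nuclear genes had a mean of at least 100 TPM, and genes under 700 bases made up 49.8% of the summed nuclear TPM.

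**Figure D3:**
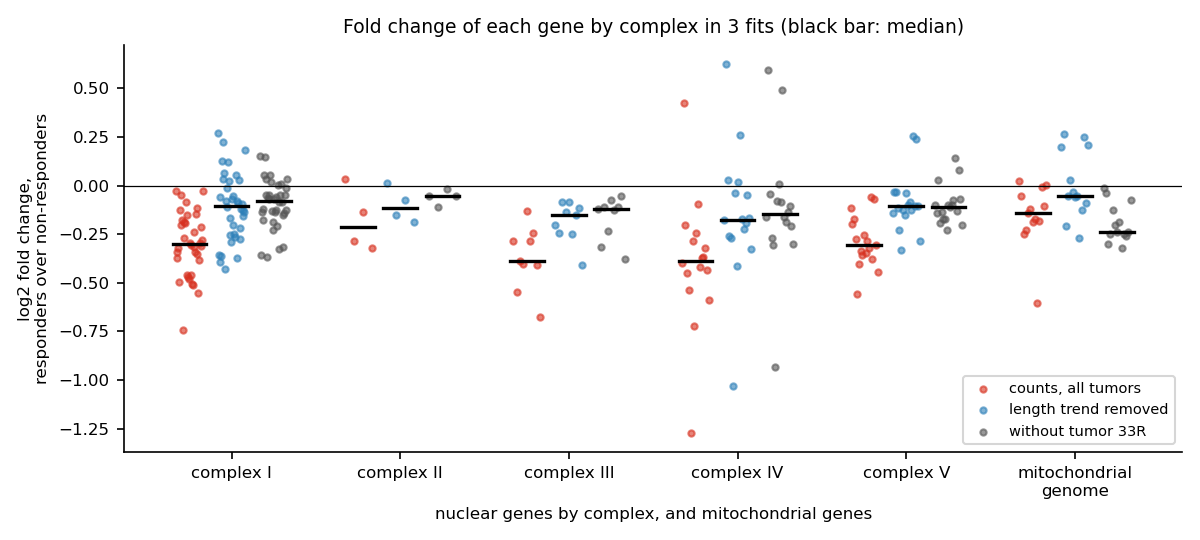
Log2 fold change, responders over non-responders, of each nuclear gene by complex and of the 13 mitochondrial genes, from counts with all tumors, with the length trend removed, and without tumor 33R, with the median as a black bar. The nuclear medians lie between -0.39 and -0.21 with all tumors and between -0.17 and -0.06 in the other fits, and the mitochondrial median moves the other way without 33R, from -0.14 to -0.24.

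Setting the nuclear genes beside all genes of like length shows what the length classes share. Of 36 nuclear genes under 700 bases, 7 were lower in responders than in non-responders (19.4%), against 12% of all genes under 700 bases, and the median log2 fold changes were -0.36 and -0.28. Of 30 nuclear genes from 700 to under 1200 bases, 1 was lower (3.33%), against 7.94% of all genes in that class, with medians of -0.30 and -0.19. Of 16 nuclear genes of 1200 bases or more, 2 were lower (12.5%), against 3.93% of all, with medians of -0.26 and 0.04. Without 33R these counts were 0, 0 and 1, where 2.44%, 1.86% and 1.67% of all genes of the class were lower. The medians of the nuclear genes were then -0.107, -0.106 and -0.116 against -0.117, -0.041 and 0.022 of all genes, so that under 700 bases the nuclear genes were no lower than other genes. When the length trend of each tumor was removed with an offset in the fit, 3 of 82 nuclear genes were lower, Ndufa10, Ndufs1 and Cox6a2, where 4.24% of all genes were, and the median was -0.12 against -0.02 over all genes. The 7 other genes kept negative values, from -0.43 for Ndufa7 to -0.25 for Uqcr10, with adjusted p between 0.10 and 0.21. Against control IgG the same offset gave 5 lower genes, Ndufa10, Ndufs1, Cox6a2, Ndufa4 and Ndufv1, where 8.04% of all genes were lower.

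**Figure D4:**
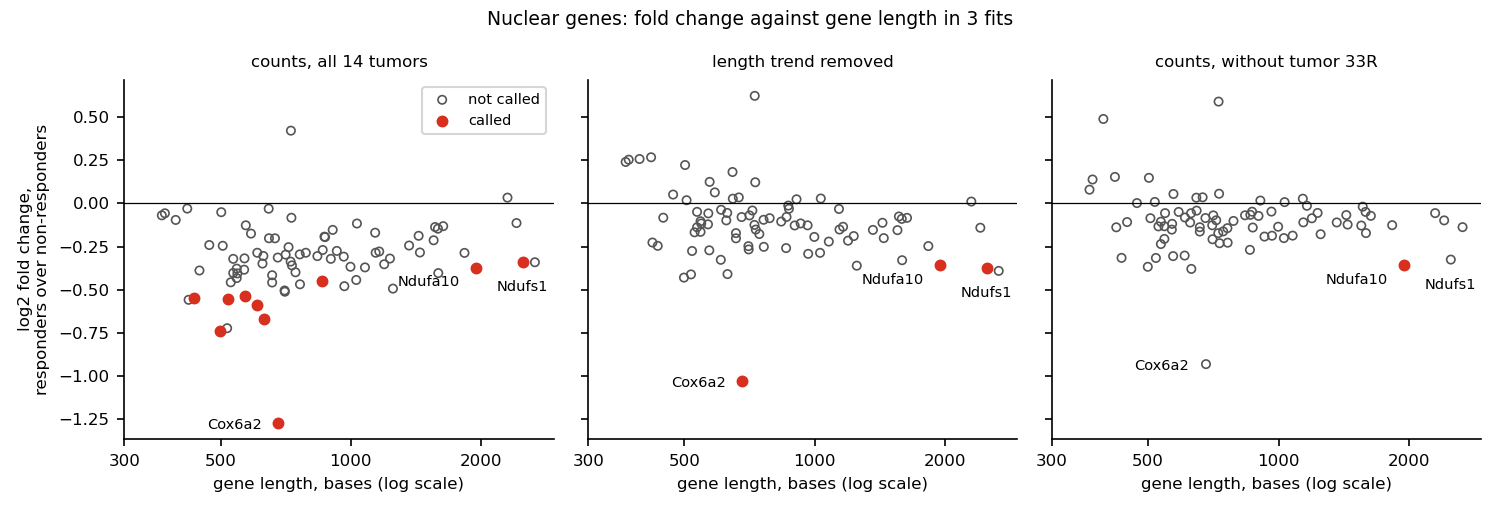
Log2 fold change, responders over non-responders, of the 82 nuclear genes tested against gene length (log axis), from counts with all 14 tumors, with the length trend removed, and without tumor 33R, with genes at an adjusted p under 0.05 as filled points. The called genes number 10, 3 and 1 from left to right, and Ndufa10 is called in each panel.

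With limma on log2(TPM + 1), 2 nuclear genes were lower, Cox6a2 (-0.91 ± 0.25 SE, adjusted p = 0.031) and Uqcr10 (-0.31 ± 0.10 SE, adjusted p = 0.046), where 1.17% of all genes were lower. On this scale 1 was higher, Cox4i2 (0.46 ± 0.13 SE, adjusted p = 0.032), where 12.1% of all genes were higher. The median of the nuclear genes was -0.03 and that of all genes 0.17, so that relative to all genes it was -0.20. In this TPM fit 76 of the 82 lay below the median of all genes, which were not matched for length. In the count fit with the length trend removed, the relative median was -0.10, and -0.02 with 33R also left out. By CPM, every responder was below every non-responder in 11 of the 82 nuclear genes (13.4%), where 6.04% of all genes were so. These were the called genes other than Ndufa7, Uqcrq and Cox6a1, and Ndufb3, Uqcrb, Cox7a2 and Atp5d. By TPM the number was 4, where 1.38% of all genes were so, and 3 nuclear genes, Ndufb10, Ndufs3 and Ndufv3, lay above without overlap, where 15.4% of all genes did. Against control IgG, 10 nuclear genes were lower in every responder by CPM, where 6.72% of all genes were.

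No mitochondrially encoded gene passed the test. Of the 13, 0 were called in each comparison by edgeR, DESeq2 and limma, and the smallest adjusted p in responders against non-responders was 0.21, with 0 of 13 at an unadjusted p under 0.05. The median log2 fold change was -0.14 in this comparison, 0.17 against control IgG and 0.27 in non-responders against control IgG. The tumors themselves differed widely. Summed over the 13 genes, the control IgG tumors had 14756, 9286, 12519, 11499 and 9267 CPM, the responders 17005, 13824, 11144, 7217 and 12364 CPM, and the non-responders 12757, 13244, 17816 and 12184 CPM. The lowest value, in 30R, was that of a responder, and responder 24L was second only to 33L, so the groups overlapped widely. The libraries were made from RNA bound to oligo(dT), which retains those mitochondrial messages that carry a short tail.

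By gene, mt-Co1, the catalytic subunit of complex IV, was the most abundant of the 13 by CPM, with 3903 to 6645 CPM in control IgG tumors and 3173 to 6544 CPM in responders, while non-responders had 5143 to 7293 CPM (log2 fold change -0.25 ± 0.20 SE, adjusted p = 0.43). The other complex IV genes, mt-Co2 (-0.23 ± 0.41 SE, adjusted p = 0.76) and mt-Co3 (-0.14 ± 0.19 SE, adjusted p = 0.67), also overlapped. Cytochrome b of complex III, mt-Cytb, had 896 to 2164 CPM in responders, while non-responders had 1382 to 2213 CPM (-0.12 ± 0.22 SE, adjusted p = 0.77). Of the complex I genes, mt-Nd3 had the largest difference, -0.60 ± 0.30 (SE, adjusted p = 0.21), with 167 CPM in 33R, and mt-Nd6, which lies on the other strand, had 0.00 ± 0.30 (SE, adjusted p = 0.996). Whether strand was kept is not given, so reads of the opposite strand may count toward mt-Nd6. The remaining 5 genes of complex I, mt-Nd1, mt-Nd2, mt-Nd4, mt-Nd4l and mt-Nd5, had log2 fold changes from -0.19 to -0.01. For mt-Atp6 of complex V the value was 0.02 ± 0.23 (SE, adjusted p = 0.97). The standard errors of the 13 genes were between 0.19 and 0.89, against 0.07 for Ndufa10, so that a difference of the size of Ndufa10 was not detectable here.

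**Figure D5:**
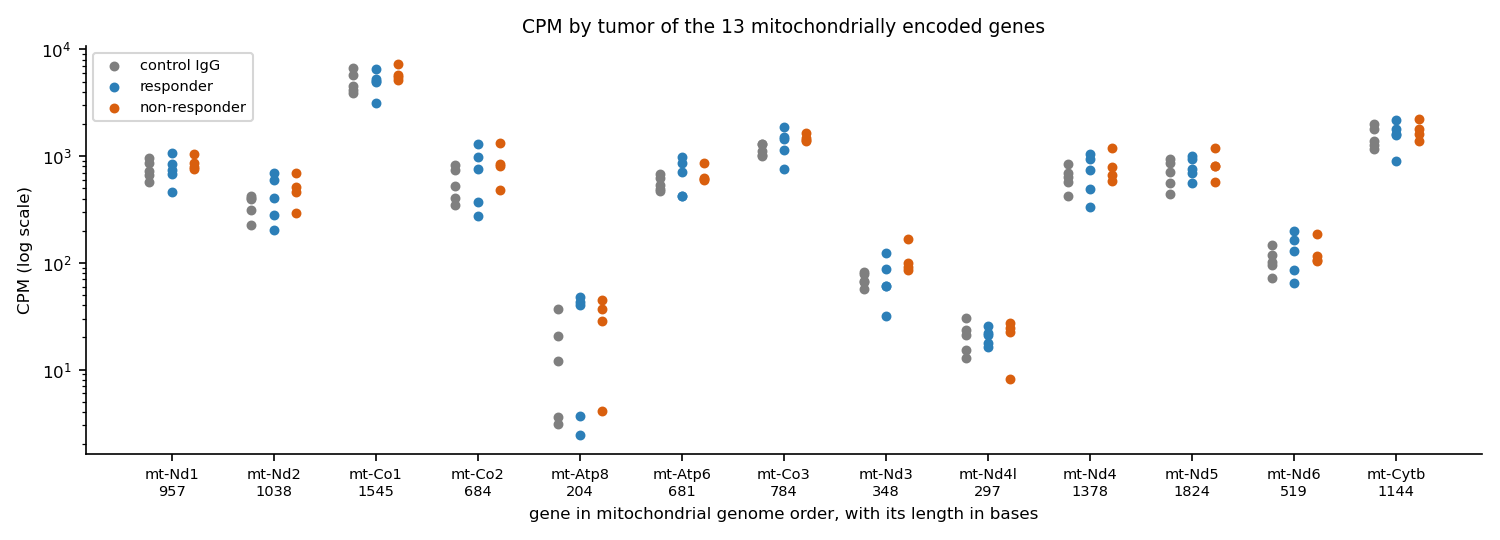
CPM per tumor (points, log axis) of the 13 mitochondrially encoded genes by group, in their order on the mitochondrial genome, with the length of each gene in bases. The groups overlap for each gene when responders are set beside non-responders, mt-Co1 is the highest, and mt-Atp8 spreads over 19.95-fold, more than the other 12 genes.

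The shortest of the 13 is mt-Atp8, a small membrane subunit of complex V. Its reading frame of 204 bases, annotated as a transcript of its own, lies at chrM:7766-7969 (mm10). The last 43 bases of this frame are also the start of mt-Atp6, which lies on the same message. The sequence is shown, from the GENCODE vM21 transcripts, with the shared bases in capitals, because its length bears directly on its TPM.
mt-Atp8: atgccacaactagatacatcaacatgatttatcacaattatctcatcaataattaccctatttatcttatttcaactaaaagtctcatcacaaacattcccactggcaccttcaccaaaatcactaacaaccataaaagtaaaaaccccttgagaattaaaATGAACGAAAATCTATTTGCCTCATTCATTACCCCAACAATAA
Since 204 bases are fewer than the mean fragment, the effective length that RSEM gave it was between 2.4 and 3.2 bases. Expected counts between 122 and 2091 therefore became 1186 to 20277 TPM. In 8 of the 14 tumors it had more TPM than mt-Co1, whose counts are far higher. By CPM it had 12, 21, 4, 37 and 3 in control IgG tumors, 48, 43, 4, 2 and 41 in responders, and 4, 37, 44 and 29 in non-responders, with high and low tumors in each group (log2 fold change -0.05 ± 0.89 SE, adjusted p = 0.98). The summed TPM of the mitochondrial genes was 32038 ± 11166 in non-responders (SD, n = 4) with mt-Atp8 and 20764 ± 5621 (SD, n = 4) without it, so TPM sums of this genome were read without it.

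The ratio of mitochondrial to nuclear CPM overlapped between the groups. It was 1.56, 0.77, 1.26, 1.15 and 0.85 in control IgG tumors, 1.99, 1.46, 1.17, 0.79 and 1.30 in responders, and 1.27, 1.19, 1.88 and 0.84 in non-responders. The 2 tumors of mouse 33 were near the ends, with 1.88 in 33L and 0.84 in 33R. The nuclear sum of 33R was 1.54 times that of 33L and its mitochondrial sum 0.68 times. Of the 82 nuclear genes, 75 had their highest CPM of all tumors in 33R (91.5%), against 23.2% of all genes tested.

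The promoters of 3 called genes are shown, since nuclear respiratory genes are known targets of NRF1, GABPA, YY1 and SP1. They are the 250 bases before and 50 after the annotated start, from RefSeq on GRCm38.p6, the build of mm10, 5′ to 3′ on the strand of the gene, with matches to the NRF1 letters GCGCANGC and the SP1 letters GGGCGG, on either strand, in capitals.
Ndufa10 (chr1:92473709-92474008, minus strand): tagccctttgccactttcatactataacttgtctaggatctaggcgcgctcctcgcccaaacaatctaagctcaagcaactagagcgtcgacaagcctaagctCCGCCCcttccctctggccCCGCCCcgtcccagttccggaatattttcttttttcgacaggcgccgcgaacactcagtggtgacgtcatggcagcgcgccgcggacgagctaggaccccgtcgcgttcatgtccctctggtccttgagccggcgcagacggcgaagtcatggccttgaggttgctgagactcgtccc
Ndufs5 (chr4:123718137-123718436, minus strand): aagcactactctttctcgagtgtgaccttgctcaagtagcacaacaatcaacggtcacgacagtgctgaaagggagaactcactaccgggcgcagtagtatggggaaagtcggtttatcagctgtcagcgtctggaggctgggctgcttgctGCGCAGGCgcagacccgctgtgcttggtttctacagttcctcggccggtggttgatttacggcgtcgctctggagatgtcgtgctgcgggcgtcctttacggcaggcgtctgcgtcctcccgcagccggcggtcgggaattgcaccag
Cox6a1 (chr5:115348909-115349208, minus strand): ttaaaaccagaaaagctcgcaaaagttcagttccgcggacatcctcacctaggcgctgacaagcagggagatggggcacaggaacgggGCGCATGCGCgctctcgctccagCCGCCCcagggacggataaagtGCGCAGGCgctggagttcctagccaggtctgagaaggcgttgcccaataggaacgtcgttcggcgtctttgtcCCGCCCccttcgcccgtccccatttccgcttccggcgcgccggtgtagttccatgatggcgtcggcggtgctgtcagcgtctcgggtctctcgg
Ndufa10 held 2 SP1 matches, Ndufs5 1 NRF1 match, and Cox6a1 3 NRF1 matches, some of which overlap, and 2 SP1 matches. Of the 86 nuclear genes, 67 were in the promoter table, which holds 27025 genes. The NRF1 letters were in 32.8% of the 67 and in 10.1% of all promoters. The YY1 letters AAGATGGC were in 11.9% against 2.88%, the GABPA letters CCGGAAGT in 7.46% against 4%, and the SP1 letters in 40.3% against 35.9%. Among the 7 called genes in the table, 2 held the NRF1 letters, 2 the SP1 letters, and 0 those of GABPA or YY1. The promoters shown are those of the called genes with a match. Cox5b, Ndufa4, Ndufa7 and Uqcr10 held none of these letters. A match is only a match of letters.

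Of 12 nuclear regulators of the respiratory chain, 1 was lower in responders than in non-responders and 0 were higher, where 4.82% and 5.08% of all genes were. This was Ppargc1a, which encodes the coactivator PGC-1alpha. It had 0.85, 0.62, 0.68, 0.94 and 0.69 CPM in control IgG tumors, and 0.21, 0.23, 0.37, 0.22 and 0.26 CPM in responders. The non-responders had 0.45, 0.32, 0.74 and 0.92 CPM. Only 32R, at 0.32 CPM, lay within the responders. For Ppargc1a the log2 fold change was -1.22 ± 0.31 (SE, adjusted p = 0.029 by edgeR) against non-responders and -1.54 ± 0.30 (SE, adjusted p = 0.0047) against control IgG, at a level of under 1 CPM in every tumor. Without 33R the first of these was -0.93 (adjusted p = 0.097). Myc, a broad activator of growth genes, was lower than in control IgG (-0.61 ± 0.12 SE, adjusted p = 0.0056) and did not pass against non-responders (-0.26, adjusted p = 0.20). Nrf1 (-0.05, adjusted p = 0.65), Gabpa (-0.03, adjusted p = 0.88), Gabpb1 (-0.17, adjusted p = 0.25), Gabpb2 (0.17, adjusted p = 0.43), Yy1 (0.04, adjusted p = 0.79), Sp1 (0.11, adjusted p = 0.70), Esrra (-0.25, adjusted p = 0.15), Ppargc1b (0.16, adjusted p = 0.55), Pprc1 (-0.14, adjusted p = 0.55) and Hcfc1 (0.35, adjusted p = 0.30) did not pass.

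Of the other genes of the pathway, those called were all lower in responders, and the share of all genes called lower was 4.82%. The 6 lists and Ndufa4l2 held 15 called genes, 3 without 33R and 1 without 24L. In responders against non-responders, 4 of 49 assembly factors were lower and 0 higher, among them Tmem126a and Uqcc3, which take part in building complexes I and III. Of 17 genes of the citric acid cycle and pyruvate dehydrogenase, 4 were lower, among them Pdhb, a subunit of pyruvate dehydrogenase (-0.29 ± 0.07 SE, adjusted p = 0.026 by edgeR), Dlst and Suclg2, enzymes of the cycle. These 3 were also lower than in control IgG. Of 20 genes of mitochondrial structure and import 4 were lower, with Tomm20 at -0.64 (adjusted p = 0.037) but 639 CPM in 33R against 311 to 362 CPM in the other non-responders, and at -0.32 (adjusted p = 0.076) without 33R. Of the genes named from these lists, Tmem126a kept an adjusted p under 0.05 without 33R (-0.37, adjusted p = 0.040), while Uqcc3, Pdhb, Dlst, Suclg2 and Tfb2m had adjusted p from 0.058 to 0.11. Of 22 genes of mitochondrial DNA expression 1 was lower, Tfb2m (-0.30, adjusted p = 0.030), a factor of mitochondrial transcription, and of 20 electron and nucleotide carriers 0 were. Ndufa4l2, the paralog of Ndufa4 that low oxygen induces, had 12.2, 17.3, 7.2, 12.7 and 8.0 CPM in control IgG tumors, and 4.51, 2.45, 3.59, 6.06 and 4.79 CPM in responders. The non-responders had 6.8, 17.4, 7.7 and 15.5 CPM. The responders were below all other tumors, with a log2 fold change of -1.47 ± 0.33 (SE, adjusted p = 0.018 by edgeR) against non-responders and -1.42 ± 0.32 (SE, adjusted p = 0.010) against control IgG. Without 33R the first was -1.29 (adjusted p = 0.054).

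T cell and red blood cell markers also differed between responders and non-responders, while 1 macrophage and 1 fibroblast marker passed. Over all genes tested, 5.08% were higher and 4.82% were lower in responders. Of 10 T cell markers 9 were higher in responders than in non-responders, with sums of 64.7 to 117.9 CPM against 37.1 to 45.6 CPM, and 29.3 to 60.3 CPM in control IgG tumors. Of 6 tested red blood cell genes 5 were lower, with sums of 59.4 to 282.9 CPM in responders, 375.8 to 2067 CPM in non-responders and 71.5 to 1910 CPM in control IgG tumors. Of 10 macrophage markers 1 was higher, with sums of 4165 to 4923 CPM in responders, 3518 to 4905 CPM in non-responders and 3322 to 3964 CPM in control IgG tumors. Of 10 fibroblast markers 1 was higher, with sums of 2943 to 4936, 2384 to 4439 and 2467 to 3165 CPM in the same order of groups. No keratinocyte or fat marker passed, with sums of 8.75 to 1017 and 60.6 to 147.8 CPM over all tumors. The carcinoma epithelium markers, which describe the labelled origin of the line, were low throughout, between 11.7 and 50.7 CPM in sum over 8 genes, and 0 passed. No marker was at 0 in all tumors. The part of these cells in the levels of the respiratory genes was not tested.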

How the data were processed

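RNA-seq was analysed for 14 CT26 tumors, 1 file each. Per the submitters' processing notes the reads were aligned to mm10 with STAR and quantified with RSEM, and versions are not given in the sources used here for the tumors. The deposited expected counts are RSEM's estimates of fragments per gene, with shared fragments divided among genes. The deposited TPM divide these by effective length and scale each tumor to the same sum, and the deposited FPKM, also made by the authors, were not used. Gene lengths are RSEM's isoform-weighted lengths, averaged over tumors. The libraries were made with oligo(dT), and whether strand was kept is not given in the sources used here. Reads of opposite strands may thus not be told apart, within mt-Nd6 or where its annotation overlaps mt-Nd5 by 14 bases. Groups were taken from the labels. The members, lists and tests were chosen with earlier results of these data known.

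Expected counts were rounded and tested with edgeR 4.0.16 (R 4.3.3) by the quasi-likelihood test over all 14 tumors, with TMM scaling, filterByExpr (16287 genes kept) and Benjamini-Hochberg adjustment over all genes kept. A gene was called at an adjusted p under 0.05. TPM were tested with limma 3.58.1 on log2(TPM + 1), a scale that understates changes of low genes. Alternatives were DESeq2 1.42.0, other scalings, filters, pseudocounts and an offset for the length trend (loess, span 0.5), mouse as a random effect or 1 library per mouse, the compared groups alone, and each tumor left out. The fits were tested on simulated data. Totals were 33237744 to 48481461, and limits from counts of 0 cover counting error only.

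Named genes were those called, the nuclear gene with the highest TPM and CPM in each complex, all mitochondrial genes, tissue isoforms of complex IV, members not detected, up to 3 called genes a pathway list, and all regulators. 1 gene that this rule names is not reported here. Ndufv1, Cyc1, Uqcrfs1 and Atp5g2 were added for their role or place near the threshold after their values were seen. Of 53801 genes, 53620 matched a symbol, and Fastkd4 and Ahsp of the lists were not matched.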

Additional observations from a re-analysis of the deposited data

Results flagged for a closer look

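In 96 sets of values of 1 group with 4 or 5 tumors, 5 had a tumor far from the rest by Dixon's test at the 95% level, and chance alone flags about 1 in 20 such sets. Responder 24L had the lowest summed TPM of the nuclear genes, 21744, against 23394 to 23820 in the other responders. It also had the lowest summed CPM of nuclear complex V, 3594.4, against 4060.1 to 4178.4. Non-responder 33L had the highest summed CPM of mitochondrial complex IV, 10257, against 7433.9 to 7785.5 in the other non-responders, and of mitochondrial complex V, 901.11, against 623.35 to 643.72. Non-responder 33R had the highest CPM of Ndufa4, 140.57, against 73.764 to 81.079. The cause of these values was not tested.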

How the results depend on the processing

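The count of nuclear genes lower in responders than in non-responders, 10, was 15 with DESeq2, 4 with no filter on low counts, 3 with the length trend removed, 2 with log2(TPM + 1) and 2 with log2(TPM + 0.1) in limma. It was 21 with mouse as a random effect, 24 with 1 library per mouse and 2 with only the compared groups. The share of all genes lower moved too, from 4.82% to 7.56%, 1.53%, 4.24%, 1.17%, 1.27%, 9.15%, 6.04% and 1.27% in the order of these fits. In the random effect fit the estimated correlation of tumors of a mouse was -0.282, from 3 mice with both flanks. A negative value tends to narrow the errors of group means, so 21 is not a more cautious count. With 1 library per mouse the counts of 33L and 33R were added together. With 33R left out and the length trend removed, an alternative added after seeing the data, the count was 1, where 1.83% of all genes were lower. With each tumor left out it ranged from 1 to 17, with 1 without 24L and without 33R, 2 without 32R or 35L, 3 without 30L or 30R, 5 without 17R or 26R, 6 without 14L, 16R or 20R, and 17 without 33L. The share of all genes lower ranged from 1.41% without 24L to 6.38% without 29L. Genes higher numbered 0, and 1 in each TPM fit. The median log2 fold change of the nuclear genes, -0.31, was -0.027 with either TPM pseudocount, where the median of all genes was 0.169 and 0.235. It was -0.055 without the length trend and 33R, where the median of all genes was -0.033, so that relative to all genes it was -0.022. With each tumor left out it ranged from -0.393 to -0.109. Against control IgG, the count lower, 2, was 7 with DESeq2, 5 with the length trend removed, 1 and 1 in the TPM fits, 9 with mouse as a random effect, 13 with 1 library per mouse, 12 with only the compared groups, 6 without the length trend and 33R, and 2 to 12 with each tumor left out, where 12 was without 33R and 4 without 29L. Here too the share of all genes lower moved. It was 5.3% in the main fit, then 7.3%, 8.04%, 1.87%, 1.84%, 7.82%, 8.08%, 8.39% and 10.1% in these fits, in order. Without 33R the share was 9.31%, and without 29L 5.2%. The pathway lists had 15 genes lower against non-responders. This count was 30 with DESeq2, 2 with no filter, 9 with the length trend removed, 2 and 2 in the TPM fits, 32 with mouse as a random effect, 23 with 1 library per mouse, 1 with only the compared groups, 2 without the length trend and 33R, and 1 to 23 with each tumor left out. Against control IgG it was 9, and 18, 14, 4 and 3 with DESeq2, the length trend removed, log2(TPM + 1) and log2(TPM + 0.1), 14 with mouse as a random effect, 22 with 1 library per mouse, 19 with only the compared groups, 21 without the length trend and 33R, and 6 to 24 with each tumor left out. For both pathway counts, the shares of all genes lower in the same fits are those given above. The ratio of responder to non-responder summed nuclear CPM, 0.817, was 0.9445 in TPM and 0.775 to 0.904 with each tumor left out, and the mitochondrial ratio, 0.879, was 0.796 to 0.970. The mitochondrial genes had 0 calls in every fit run, as had the nuclear genes between non-responders and control IgG. No value changed sign among the calls, and the causes were not tested. No paired analysis was possible because no mouse gave tumors to 2 groups.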

Other observations

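The 5 tumors with the lowest CPM were the same for mt-Nd2, mt-Co2 and mt-Atp8, and came from all 3 groups: 16R, 20R, 29L, 30L and 30R. For mt-Atp8 the fifth lowest tumor had 4.06 CPM and the sixth 12.1 CPM, a wider gap than for mt-Nd2, with 311 and 395 CPM, or mt-Co2, with 486 and 521 CPM. The counts of mt-Atp8 were between 0.57% and 6.11% of those of mt-Atp6, which lies on the same transcript. These 3 genes were picked out after their values were seen.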
